A study of Mus musculus with 27 samples.

Results

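The genes described here encode 6 subunits of the NMDA receptor, Grin1, Grin2a, Grin2b, Grin2c, Grin2d and Grin3a, chosen by symbol from the 31053 genes of the count matrices. Their RNA was counted in single nuclei from the hippocampi of 27 mice, with 1 library per mouse. The groups were Cgas+/+ (n = 5), Cgas+/- (n = 2) and Cgas-/- (n = 2) mice without the tau transgene, and 3 P301S groups with 2, 1 or no copies of Cgas, named P301S Cgas+/+, P301S Cgas+/- and, with none, P301S Cgas-/- (n = 6 each). P301S mice carry human tau with the P301S mutation, driven by the mouse Prnp promoter, so the transgene is not limited to one cell type. Cgas encodes the cytosolic DNA sensor cGAS. The Cgas-/- line is a constitutive deletion, crossed with the P301S line, and littermates were compared. The mice were 9 to 10 months old by the methods text and 8 to 9 months old by the results text. Each P301S group held 3 males and 3 females, Cgas+/+ held 3 males and 2 females, and the other 2 groups held males only. The comparisons ask whether the RNA of these subunits differed with the tau transgene and with the loss of 1 or both copies of Cgas.

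NMDA receptors are glutamate-gated cation channels that open only when glutamate and a co-agonist (glycine or D-serine) are bound and the membrane is depolarized. They pass calcium and are required for long-term potentiation in the hippocampus. Every receptor holds the GluN1 subunit, encoded by Grin1, which binds the co-agonist. The GluN2 subunits, encoded by Grin2a to Grin2d, bind glutamate and set the kinetics and the magnesium block. GluN3A, encoded by Grin3a, lowers calcium permeability and magnesium block.

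The libraries held 46091490 to 79484316 unique molecular identifiers (UMIs, each counting 1 captured RNA molecule). After filtering, 204852 of 241938 barcodes were kept, 5840 to 12572 per library, and their classes were named from marker genes (a name such as astrocyte-like means that the markers of that cell type led the cluster). Hippocampal markers were present, but the makeup of the libraries differed, and the cause was not tested. Dentate granule-, CA1- and CA3-like nuclei made up 3.52% to 88.9% of the excitatory-like nuclei of a library. The rest were cortical-like apart from 374 nuclei of an unnamed subcluster, 364 of them in P301S Cgas+/- replicate 1 (13.3% of its excitatory-like nuclei). The hippocampal-like share was 43.4 ± 21.4% (SD) in the 5 Cgas+/+ libraries, 54.8 ± 30.8% in the 6 labelled P301S Cgas+/+, 30.2 ± 14.9% in the 6 labelled P301S Cgas+/- and 27.3 ± 18.7% in the 6 labelled P301S Cgas-/-. In 5 libraries (P301S Cgas+/+ replicates 1 and 3, P301S Cgas+/- replicate 1 and P301S Cgas-/- replicates 2 and 6) that share was under 12% or over 25% of nuclei stayed unnamed, and the tests were also run without them. Pairs of libraries shared 8 to 48 barcodes. The matrix headers named Cell Ranger 3.0.2 in 12 libraries, all male, and 3.1.0 in 15, so software version and sex overlapped. The methods of the study name only version 3.1.0, and the reason for this mismatch is not known. Software version below means that of the header. Cgas RNA, listed as Mb21d1, did not follow the labels: in microglia-like nuclei it was at 35.2 ± 2.09 CPM (UMIs of a gene scaled to a fixed total per library and class) in Cgas+/+ (n = 5), 27.3 ± 8.14 in Cgas-/- (n = 2), 37.4 ± 11.2 in P301S Cgas+/+ (n = 6) and 51.3 ± 7.09 in P301S Cgas-/- libraries (n = 6). A 3' count does not show whether that RNA still encodes the protein, so genotypes are given below as the libraries were labelled.

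All 6 genes lie on the minus strand of the GRCm38 assembly. Grin1 (ENSMUSG00000026959) lies at chr2:25291181-25319187 and is 28.0 kb long, introns included. Grin2a (ENSMUSG00000059003) spans 428 kb at chr16:9567898-9995560 and Grin2b (ENSMUSG00000030209) spans 460 kb at chr6:135713233-136173511. Grin2c (ENSMUSG00000020734, chr11:115249169-115267243) and Grin2d (ENSMUSG00000002771, chr7:45831883-45878378) are short, at 18.1 and 46.5 kb, and Grin3a (ENSMUSG00000039579, chr4:49661611-49845744) spans 184 kb. In the GENCODE vM21 annotation, Grin1 overlaps Grin1os, Grin2b overlaps Gm14329, Gm14330 and Gm26653, and Grin2d overlaps Gm45441 and Kdelr1 on the opposite strand, while Ppp3r2 lies within Grin3a on the same strand. The strand setting of the counting is not given in the sources used here, so reads of overlapping genes could not be assigned with certainty.

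**Figure D1:**
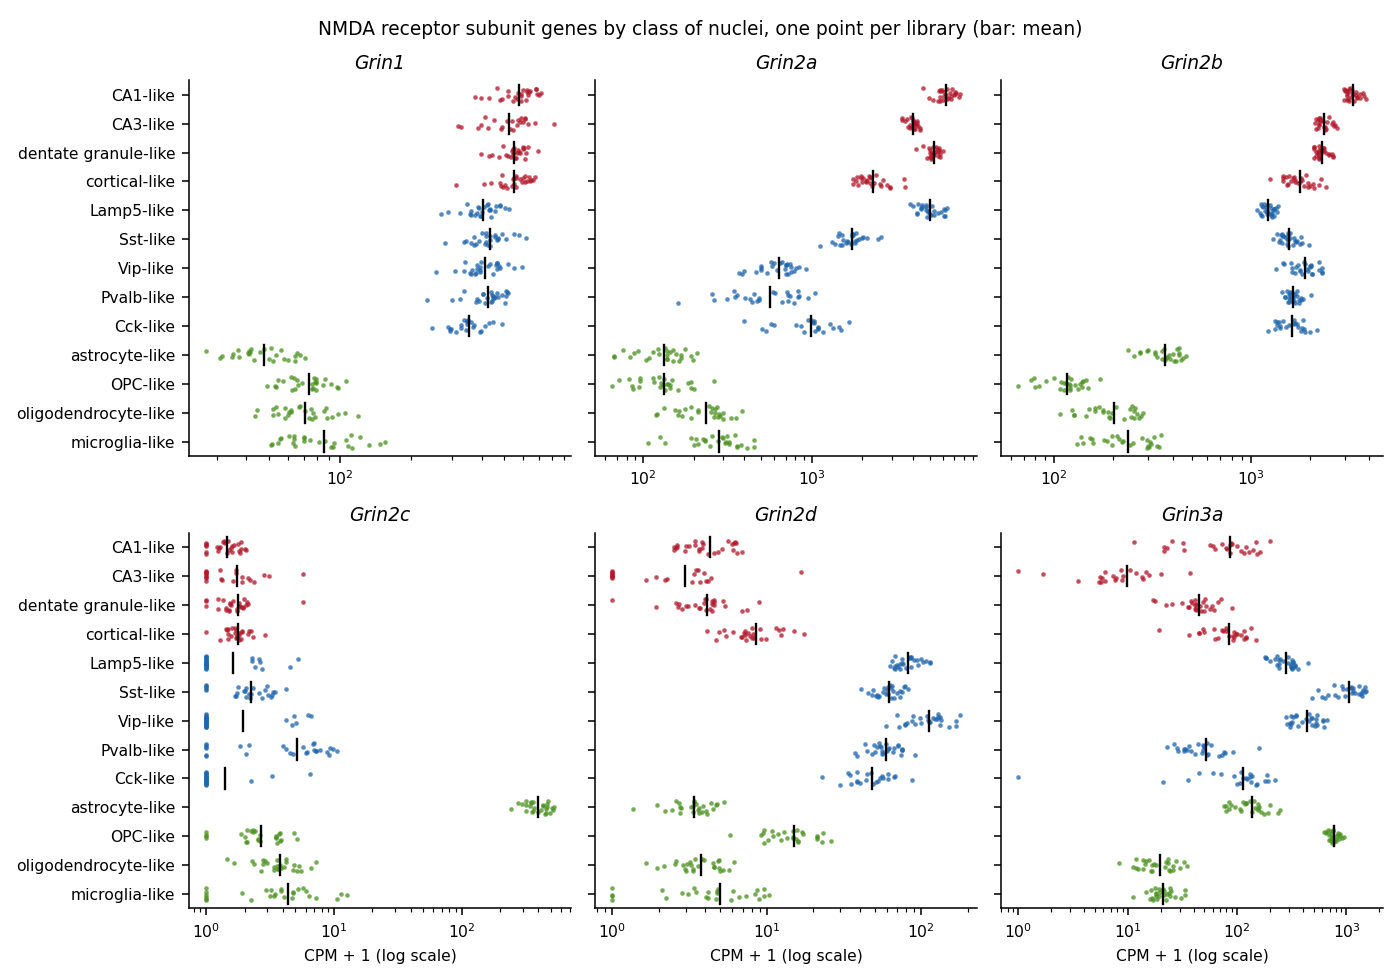
Level of each subunit gene (CPM plus 1, log axis) in 13 classes and neuron subtypes, with 1 point per library and a bar at the mean; red marks excitatory-like, blue inhibitory-like and green glia-like nuclei. Grin1, Grin2a and Grin2b are spread over neurons, Grin2c stands out in astrocyte-like nuclei at a mean of 398 CPM, Grin2d in inhibitory-like subtypes, and Grin3a in Sst-like and OPC-like nuclei.

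Grin1, the obligatory subunit, was found in all neuron subtypes, at higher levels in excitatory-like than in inhibitory-like nuclei (556 against 412 CPM, higher in 27 of 27 libraries, mean log2 ratio 0.43 ± 0.0791 SD). Its level was 574 ± 92.3 CPM (SD, n = 27) in CA1-like, 550 ± 83.7 in cortical-like, 548 ± 64.2 in dentate granule-like and 524 ± 116 (n = 23) in CA3-like nuclei. Among interneurons it was 432 ± 74 CPM in Sst-like, 426 ± 68.9 in Pvalb-like, 413 ± 74.2 in Vip-like, 404 ± 60.8 in Lamp5-like (n = 27 each) and 352 ± 56.5 in Cck-like nuclei (n = 23). Neighbours in this order did not separate beyond their spread, since their SD ranges overlapped. CA1-like exceeded cortical-like nuclei in 18 of 27 and CA3-like nuclei in 21 of 23 libraries. The mean Grin1 level was 46.7 CPM in astrocyte-like, 72.5 in OPC-like (oligodendrocyte precursor), 32.7 in committed oligodendrocyte precursor-like, 70.1 in oligodendrocyte-like and 84.7 CPM in microglia-like nuclei. How Grin1 ranked among the 6 genes depended on the length used. In excitatory-like nuclei it was at 19.8 ± 2.70 CPM per kb of gene span (n = 27), against 8.52 ± 2.14 for Grin2a and 4.64 ± 0.608 for Grin2b, but per kb of exon the levels were 57.3 for Grin1, 203 for Grin2a and 85.9 for Grin2b. By the methods of the study, reads on pre-mRNA were counted, so introns were included. Which length such 3' counts of nuclear RNA follow was not tested, so no order of the genes is given.

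Grin2a, the GluN2A subunit that is prominent at mature synapses, separated the neuron subtypes the most widely of the main subunits. Its level was 6241 ± 735 CPM in CA1-like and 5270 ± 402 in dentate granule-like nuclei, and CA1-like nuclei were higher in 26 of 27 libraries. Lamp5-like interneurons followed at 5010 ± 730 CPM, which dentate granule-like nuclei exceeded in only 17 of 27 libraries. CA3-like nuclei were at 3965 ± 270 CPM (n = 23) and cortical-like nuclei at 2320 ± 485 (n = 27), and these SD ranges did not overlap. The remaining interneurons were lower, at 1726 ± 323 CPM in Sst-like, 995 ± 327 in Cck-like, 637 ± 144 in Vip-like and 566 ± 232 in Pvalb-like nuclei. Thus Lamp5-like nuclei stood with the hippocampal-like excitatory subtypes for Grin2a and apart from the other interneurons.

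Grin2b, the GluN2B subunit that dominates early in development and outside synapses, varied less. The Grin2b level was 3292 ± 248 CPM in CA1-like nuclei, and was higher there than in CA3-like nuclei (2361 ± 187) in 23 of 23 libraries. Dentate granule-like nuclei were at 2290 ± 159 CPM, which the CA3-like level exceeded in 16 of 23 libraries. Vip-like (1877 ± 266), cortical-like (1773 ± 282), Pvalb-like (1646 ± 127), Cck-like (1613 ± 249) and Sst-like nuclei (1567 ± 157 CPM) had SD ranges that overlapped between neighbours, and a subtype exceeded the next in this order in 16 of 27, 18 of 27, 15 of 23 and 13 of 23 libraries. Vip-like nuclei exceeded Sst-like nuclei in 25 of 27 libraries. Lamp5-like nuclei had the lowest Grin2b level of the neuron subtypes, 1228 ± 82.8 CPM, under the Sst-like level in 27 of 27 libraries.

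The ratio of Grin2b to Grin2a therefore ran from strongly negative to positive on a log2 scale. The log2 ratio of their UMIs was −2.02 ± 0.207 (SD, n = 27) in Lamp5-like, −1.20 ± 0.129 in dentate granule-like, −0.92 ± 0.180 in CA1-like, −0.75 ± 0.129 (n = 23) in CA3-like and −0.38 ± 0.125 in cortical-like nuclei. Sst-like nuclei were near balance at −0.12 ± 0.312, with more Grin2b than Grin2a in 11 of 27 libraries. Grin2b exceeded Grin2a in 27 of 27 libraries in both Vip-like (1.58 ± 0.431) and Pvalb-like nuclei (1.67 ± 0.664), and in 22 of 23 in Cck-like nuclei (0.77 ± 0.460). These are counts of nuclear RNA over genes of unequal length, so a ratio of 0 does not mean equal numbers of molecules per gene copy or of subunits, while the order of the subtypes does not depend on length.

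**Figure D2:**
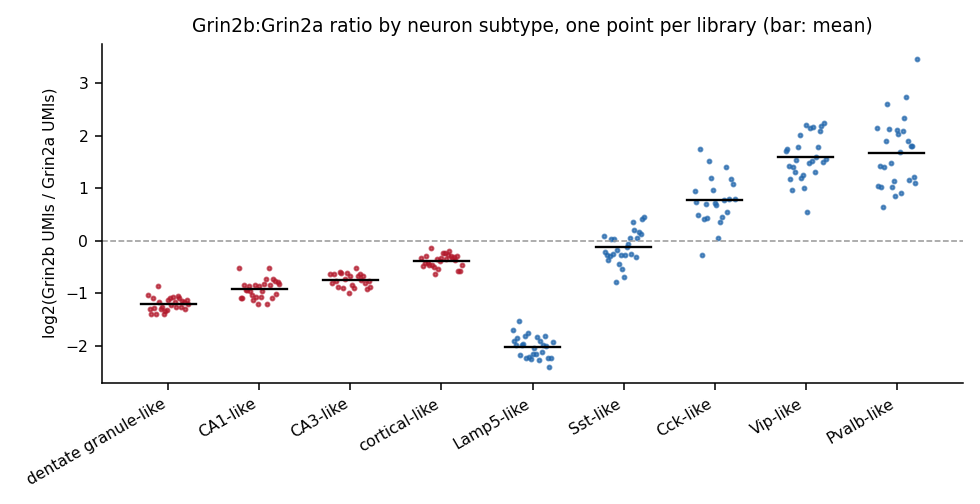
Log2 ratio of Grin2b to Grin2a UMIs in 9 neuron subtypes, 1 point per library; above 0, Grin2b has more UMIs. Lamp5-like nuclei lie lowest at a mean of −2.02 and Pvalb-like nuclei highest at 1.67, with excitatory-like subtypes all below 0 on average.

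Grin2c, the GluN2C subunit known from cerebellar granule cells, was in the hippocampus a gene of astrocyte-like nuclei. Its level there was 398 ± 78.3 CPM, from 244 to 526 over 27 libraries, against 18.6 ± 23.5 CPM (n = 25) in endothelial-like nuclei, the next named class in order. Astrocyte-like nuclei were higher than endothelial-like nuclei in 25 of 25 libraries and higher than excitatory-like, inhibitory-like, OPC-like, oligodendrocyte-like and microglia-like nuclei in 27 of 27 each. Neuron subtypes held 0.392 to 4.12 CPM of Grin2c. With every nucleus thinned to 1000 UMIs (433 astrocyte-like and 114 excitatory-like nuclei below that depth were left out), 30.8 ± 4.85% of astrocyte-like nuclei had a Grin2c UMI against 0.0779 ± 0.0303% of excitatory-like nuclei. Unthinned, the shares were 65.8% and 0.645%, at median depths of 3327 and 9305 UMIs. In the same nuclei the level of Grin2c was 22.0 ± 4.33 CPM per kb of gene span, against 1.67 for Grin1 and 0.791 for Grin2b. Per kb of exon the 3 levels were 79.0, 4.82 and 14.6, so Grin2c was the highest of the 3 on both scales.

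Grin2d, the GluN2D subunit known from interneurons, was found at low levels and mostly in inhibitory-like nuclei. The level of Grin2d was 112 ± 31.6 CPM in Vip-like, 81.7 ± 15 in Lamp5-like, 60.7 ± 10.8 in Sst-like, 58.4 ± 12.8 in Pvalb-like (n = 27 each) and 47.3 ± 14.6 CPM in Cck-like nuclei (n = 23). Vip-like exceeded Lamp5-like nuclei in 21 of 27 libraries and Lamp5-like exceeded Sst-like nuclei in 27 of 27, while Sst-like and Pvalb-like nuclei did not differ beyond their spread (Sst-like higher in 14 of 27). Cortical-like (7.53 ± 3.19), CA1-like (3.3 ± 1.46), dentate granule-like (3.14 ± 1.66) and CA3-like nuclei (1.94 ± 3.25 CPM, n = 23) were all lower, and OPC-like nuclei lay between at 13.9 ± 5.05 CPM. After thinning, 6.84 ± 0.868% of inhibitory-like and 0.605 ± 0.247% of excitatory-like nuclei had a Grin2d UMI, and 41.3% and 4.83% unthinned.

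Grin3a, the GluN3A subunit, was highest in a pair of unrelated cell types. Its level was 1058 ± 312 CPM in Sst-like interneurons, with the widest range of any subtype (485 to 1501), and 763 ± 80.7 CPM in OPC-like nuclei (624 to 945). Sst-like exceeded OPC-like nuclei in 21 of 27 libraries. Vip-like (436 ± 118), Lamp5-like (280 ± 62.5) and astrocyte-like nuclei (135 ± 46.4 CPM) followed, with Vip-like under OPC-like nuclei in 27 of 27 libraries. Committed oligodendrocyte precursor-like nuclei were at 228 ± 123 CPM (n = 18) and oligodendrocyte-like nuclei at 18.6 ± 7, so the level of Grin3a was lower at each later stage of that lineage in the order of means. It was lower in committed precursors than in OPC-like nuclei in 18 of 18 libraries. Pvalb-like nuclei (51.1 ± 27.3 CPM) were below Sst-like nuclei in 27 of 27. Excitatory subtypes ranged from 8.94 ± 7.54 CPM in CA3-like (n = 23) to 84.8 ± 49.98 in CA1-like nuclei (n = 27). After thinning, 50.4 ± 3.49% of OPC-like and 1.88 ± 0.706% of oligodendrocyte-like nuclei had a Grin3a UMI, and 86.2% and 3.42% unthinned, at median depths of 3593 and 1819 UMIs.

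Levels also differed inside the named subtypes. These subclusters were formed without the 6 genes and without their partners listed below, and are given as a description. Astrocyte-like nuclei led by Gfap had less Grin2c (240 against 445 CPM, lower in 27 of 27 libraries), less Grin2b (301.1 against 390 CPM, lower in 25 of 27) and more Grin3a (268 against 115 CPM, higher in 25 of 27) than the main astrocyte-like cluster. One CA1-like subcluster had more Grin3a than the other (146 against 48.1 CPM, higher in 25 of 26 libraries) and less Grin2a (5620 against 6793 CPM, lower in 26 of 26). Of the 3 dentate granule-like subclusters, one had 5863 and another 4726 CPM of Grin2a, the first higher in 25 of 26 libraries. The smallest of the 3 had more Grin3a than the first (103 against 38.1 CPM, higher in 17 of 17 libraries) and less Grin2a (5186 against 5882 CPM, lower in 17 of 17). Within Sst-like nuclei, mean Grin3a was 2056 CPM in one subcluster and 215 CPM in another, higher in the first in 13 of 13 libraries. Among Vip-like nuclei, the subcluster with more Grin3a (1031 against 132 CPM, 18 of 18 libraries) had less Grin2b (1596 against 2419 CPM, 18 of 18). Cck-like nuclei split by Grin2a, 1943 against 355 CPM, in 10 of 10 libraries. Over 23 cortical-like subclusters, mean Grin2a ran from 624 to 4034 CPM and mean Grin3a from 6.30 to 300.6 CPM, while mean Grin1 ran only from 374 to 667 CPM.

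RNA of neuronal genes was also counted in glia-like nuclei, and its size was read from Slc17a7, Sv2b and Nrgn, genes of excitatory neurons. Whether it came from RNA leaked into the suspension or from remaining doublets was not tested. In astrocyte-like nuclei these stood at 13.1%, 6.74% and 13% of their excitatory-like level. Grin1 (8.56%) and Grin2a (3.78%) were no higher than that range, whereas Grin2b was at 17.2 ± 2.92% and exceeded all 3 genes in 23 of 27 libraries. Grin3a was above its excitatory-like level in astrocyte-like nuclei (205%) and in OPC-like nuclei (1220%, from 562% to 2517%), in both above all 3 genes in 27 of 27 libraries. Grin2d was highest in inhibitory-like nuclei, and Grin3a was high in some of them, so both were also set against Gad1 and Gad2, genes of inhibitory neurons. Grin2d in OPC-like nuclei was at 283% of its low excitatory-like level but at 20.3% of its inhibitory-like level, where Gad1 was at 24.6% and Gad2 at 1.66%, and it exceeded both Gad genes in 6 of 27 libraries. Gad1 stood at 2.67% to 3.84% of its inhibitory-like level in astrocyte-, oligodendrocyte- and microglia-like nuclei. Grin2d was at 13.9 CPM in OPC-like nuclei against 2.74 in oligodendrocyte-like and 2.41 in astrocyte-like nuclei, higher in 27 of 27 libraries each. How much of the Grin2d or Gad1 count of OPC-like nuclei was leaked RNA was not tested. Grin3a was at 175% of its inhibitory-like level in OPC-like and at 32.2% in astrocyte-like nuclei, above both Gad genes in 27 of 27 libraries each. In microglia-like and oligodendrocyte-like nuclei Grin1, Grin2a and Grin2b were at 6.68% to 15.6% of their excitatory-like level and exceeded all 3 genes in 0 of 27 libraries each. This cannot tell leaked RNA from a low level in these nuclei, since the 3 genes themselves stood at 11.4% to 23.1% in oligodendrocyte-like nuclei. In OPC-like nuclei Grin1 was at 13.2%, above all 3 genes in 9 of 27 libraries. Grin3a exceeded all 3 genes in 17 of 27 libraries in oligodendrocyte-like and in 14 of 27 in microglia-like nuclei, at 18.6 and 20.2 CPM, and both Gad genes in 22 and 19 of 27. In inhibitory-like nuclei Slc17a7, Sv2b and Nrgn stood at 5.73%, 3.80% and 5.18% of their excitatory-like level, and Grin2a at 48.5%. The part of such RNA in the Grin2a levels and ratios of Vip-like and Pvalb-like nuclei was not tested.

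**Figure D3:**
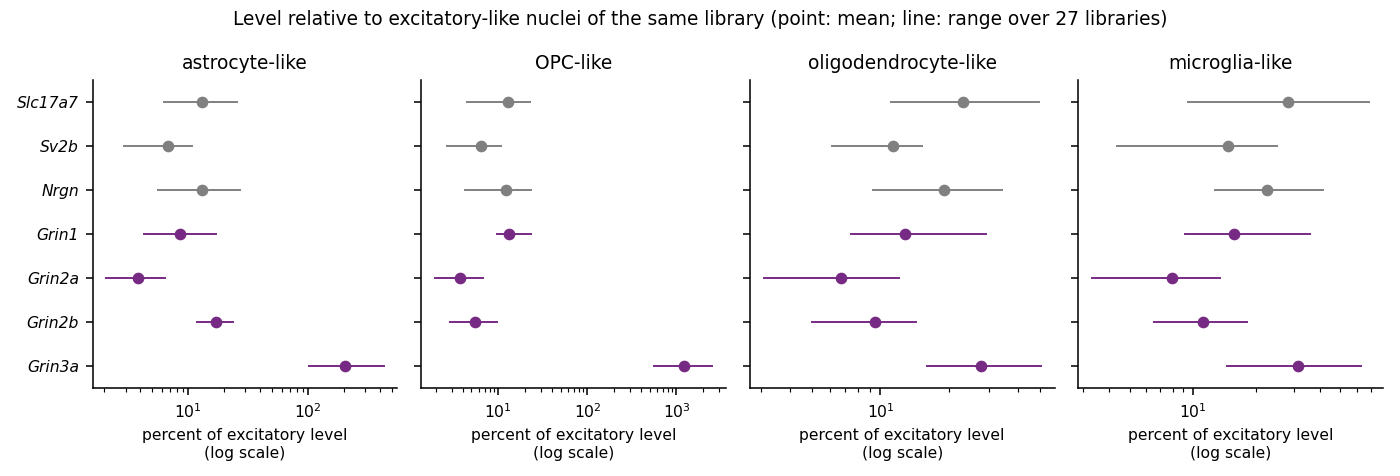
Level in 4 glia-like classes as a percent of the excitatory-like level of the same library (log axis), for 3 genes of excitatory neurons in grey and 4 subunit genes in purple; points are means over 27 libraries and lines run from the lowest to the highest library. Grin3a in astrocyte-like (205%) and OPC-like nuclei (1220%) lies above the grey genes, whereas Grin2a lies below them in each class.

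The profile of each subunit gene over 21 classes and subtypes was compared with that of 14295 other genes by the Pearson correlation of log2(mean CPM + 1), as a description over classes that share libraries and depth. Most like Grin1 were Unc13a (0.988), Svop (0.983) and Syt1 (0.974), genes of transmitter release and synaptic vesicles. Grin2a was most like Epha6 (0.943), Rbfox3 (0.935, the neuronal marker NeuN) and Kcnj6 (0.928), and Grin2b most like Gm14330 (0.968), which overlaps it, Dgkg (0.963) and Syt13 (0.949). Grin2c was nearest to Gfap (0.965) and Acsbg1 (0.936), both astrocyte genes, and to C030018K13Rik (0.928). Grin2d was nearest to Gad2 (0.910) and Slc32a1 (0.906), the GABA synthesis enzyme and vesicular transporter, and to Gm47027 (0.891). Grin3a had no close match, with Adcyap1r1 at 0.788 and Olfm2 at 0.767. Between subunits, Grin1 and Grin2b were at 0.931, Grin2a and Grin2b at 0.883, Grin2d and Grin3a at 0.596 and Grin1 and Grin2c at −0.533.

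The makeup of the excitatory-like class moved with the pooled level of Grin2a, Grin2b and Grin2d. The hippocampal-like share fell into 3 separate ranges of libraries: 3.52% to 9.96% in 4 libraries, 17% to 50.4% in 16 and 73.7% to 88.9% in 7. Mean Grin2a in excitatory-like nuclei was 2301 ± 203, 3434 ± 296 and 4888 ± 511 CPM (SD) in these ranges, which did not overlap. Mean Grin2b was 1816 ± 172, 2077 ± 177 and 2446 ± 239 CPM, and mean Grin2d was 6.88 ± 3.16, 6.21 ± 1.95 and 3.68 ± 1.18 CPM. In CA1-like nuclei alone, the ranges of Grin2a overlapped, at 5784 ± 91.9, 6290 ± 842 and 6392 ± 627 CPM. In cortical-like nuclei alone, Grin2a was 2092 ± 229, 2163 ± 267 and 2812 ± 659 CPM, highest on average in the 7 libraries of the top range, again with overlap. Grin3a in Sst-like nuclei also moved, at 1242 ± 177, 1177 ± 246 and 681 ± 171 CPM. Within the 16 libraries, Grin2a in excitatory-like nuclei had r = 0.632 and rho = 0.53 with the share (permutation p = 0.00844 and 0.0385, adjusted p = 0.236 and 0.622 over 28 relations by the Benjamini-Hochberg method), and r was 0.299 without the 2 libraries farthest from the median. Grin3a in Sst-like nuclei had r = −0.117 and rho = −0.100 within these 16 libraries (permutation p = 0.667 and 0.715, adjusted p = 0.834 and 0.954), and r was 0.209 without the 2 farthest. Of the P301S Cgas+/+ libraries, 3 of 6 lay in the highest range, against 0 of 6 P301S Cgas+/- and 0 of 6 P301S Cgas-/- libraries.

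**Figure D4:**
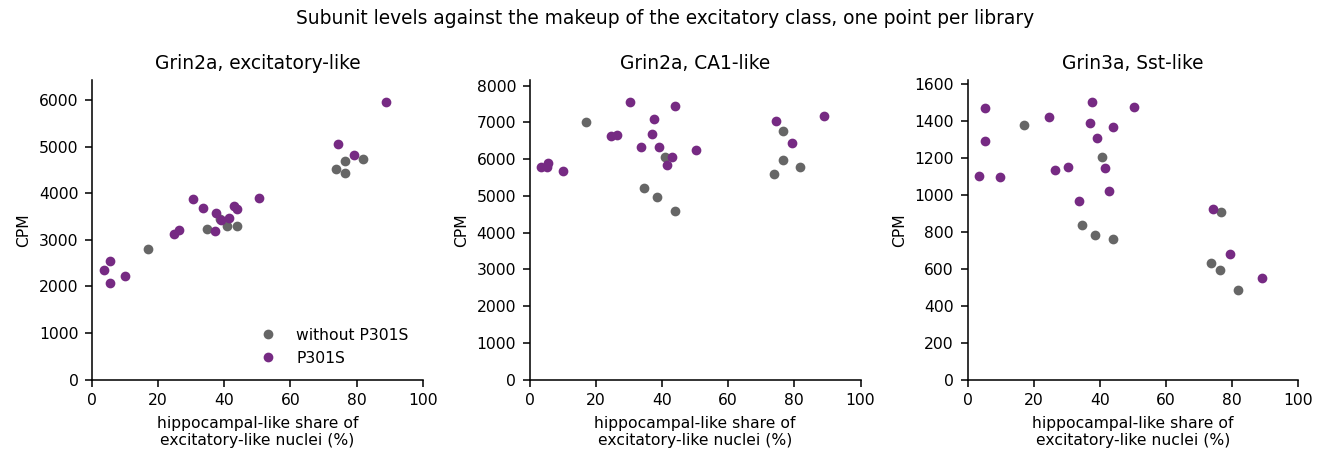
CPM of Grin2a in excitatory-like nuclei, Grin2a in CA1-like nuclei and Grin3a in Sst-like nuclei against the hippocampal-like share of excitatory-like nuclei (percent), 1 point per library, with P301S libraries in purple and the rest in grey. Excitatory-like Grin2a climbs from a mean of 2301 to 4888 CPM over the 3 ranges of the share, CA1-like Grin2a shows no such climb, and Sst-like Grin3a is lower in the 7 libraries with the highest share.

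Genotype comparisons were tested in 10 classes, 6 of them neuronal, from UMIs summed per library and class (edgeR's quasi-likelihood test with sex in the model and the Benjamini-Hochberg adjustment over all genes of a class). The pooled excitatory-like class contains its subtypes, and the 3 contrasts share the P301S Cgas+/+ libraries. Of the 60 pairs of subunit gene and class, 53 passed the filter on low counts. Grin2c was not tested in CA1-, CA3-, dentate granule-, OPC- and microglia-like nuclei, and Grin2d was not tested in CA3- and microglia-like nuclei. Across all 53 pairs, 0 changed between P301S Cgas+/+ and Cgas+/+ libraries (0.0124% of all gene and class pairs did) and 2 had an unadjusted p under 0.05 (5.22% of all pairs). Between P301S Cgas-/- and P301S Cgas+/+, 0 changed (0% of all pairs) and 7 had an unadjusted p under 0.05 (6.36%), and between P301S Cgas+/- and P301S Cgas+/+, 0 changed (0.00329%) and 6 had an unadjusted p under 0.05 (5.95%). DESeq2 also called 0 in each of these contrasts. The median log2 difference over the 53 pairs was −0.04, −0.09 and −0.17. The pairs with an unadjusted p under 0.05 are described below, apart from the following. In microglia-like nuclei they were Grin1 (tau contrast, −0.62) and Grin2b (deletion contrast, −0.48), where neither exceeded all 3 genes of excitatory neurons in any library. Grin3a in excitatory-like nuclei (heterozygous contrast, −0.55) was another. In inhibitory-like nuclei, which include the Sst-like nuclei, Grin3a had +0.34 with no copy and +0.27 with 1 copy of Cgas, each against P301S Cgas+/+. With nuclei over 4000 genes included, these 3 Grin3a values were −0.33, +0.15 and +0.09. The last was +0.17 without P301S Cgas+/+ replicate 4 and +0.44 in version 3.1.0 libraries only.

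**Figure D5:**
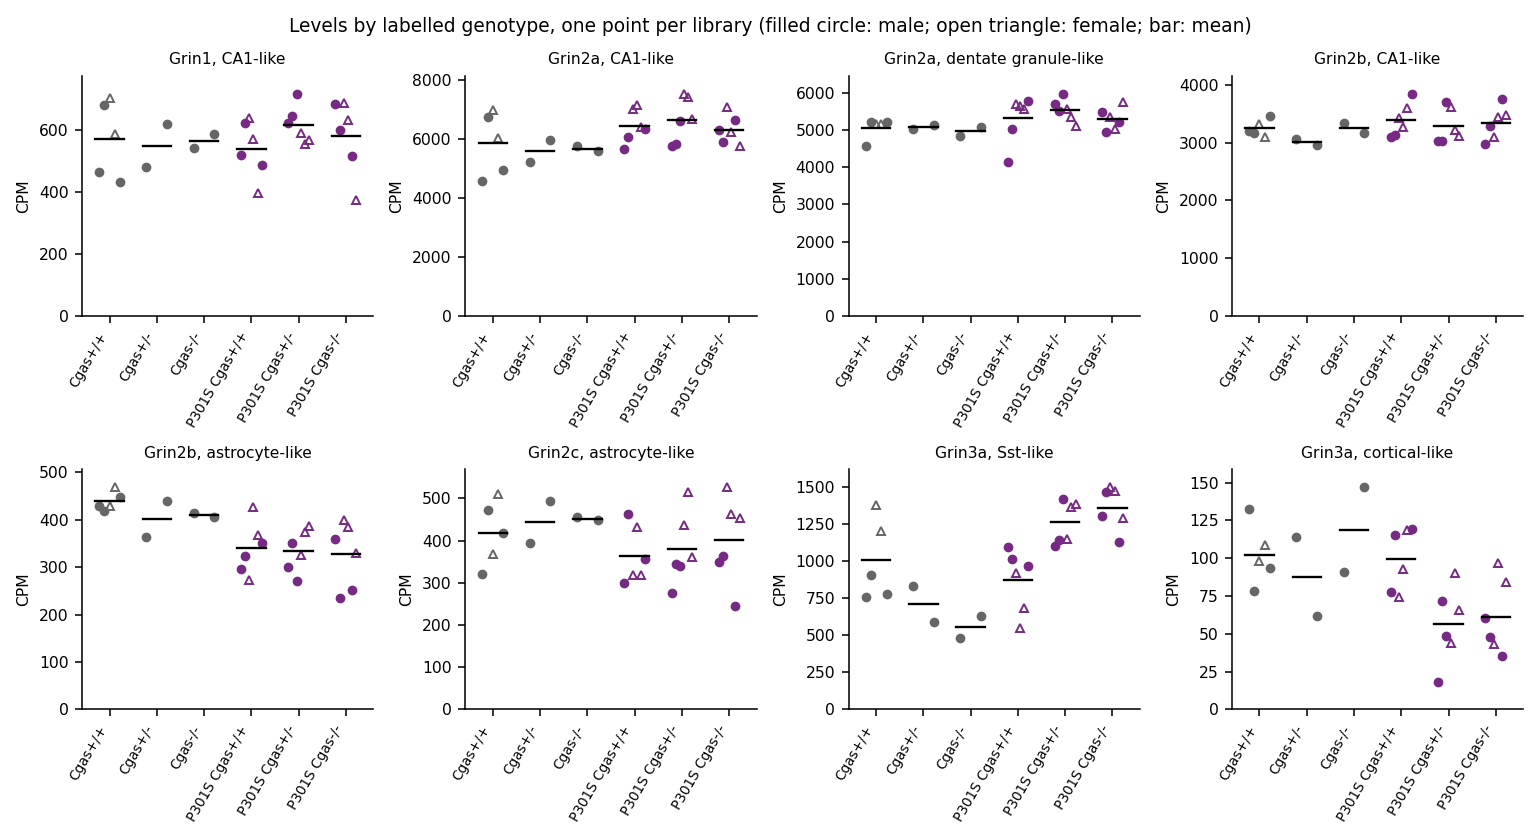
CPM by labelled genotype for 8 pairs of subunit gene and class, with filled circles for males, open triangles for females and a bar at the mean of each group (n = 5, 2, 2, 6, 6 and 6 from left to right). Hippocampal-like levels of Grin1, Grin2a and Grin2b overlap between groups. Grin3a in Sst-like nuclei is at 552 to 1098 CPM in P301S Cgas+/+ libraries and at 1105 CPM or more in the other P301S libraries. How many other genes part these libraries in this way was not counted.

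In CA1- and dentate granule-like nuclei the P301S and Cgas+/+ groups overlapped for the main subunits. Grin1 in CA1-like nuclei was 572 ± 123 CPM (SD) in the 5 Cgas+/+ libraries, and in the P301S groups (6 libraries each) it was 539 ± 91.1 with both copies of Cgas, 615 ± 59.8 with 1 copy and 582 ± 120 CPM with none. Grin2a in CA1-like nuclei was 5873 ± 1076, 6451 ± 572, 6652 ± 752 and 6330 ± 486 CPM in the same order, and 5592 and 5685 CPM on average in the Cgas+/- and Cgas-/- pairs. Grin2b in CA1-like nuclei was 3248 ± 139, 3393 ± 288, 3285 ± 300.9 and 3339 ± 280 CPM. In dentate granule-like nuclei Grin2a was 5059 ± 280, 5314 ± 639, 5535 ± 296 and 5303 ± 300 CPM. In CA3-like nuclei Grin1 was higher in both groups that lacked 1 or 2 copies of Cgas, without passing the test. It was 507 ± 136 CPM in Cgas+/+ (n = 5), 451 ± 83.3 in P301S Cgas+/+ (325 to 536, n = 5), 571 ± 48.7 in P301S Cgas+/- (488 to 610, n = 5) and 617 ± 174 in P301S Cgas-/- libraries (395 to 811, n = 4), and the ranges overlapped. The log2 difference from P301S Cgas+/+ was +0.43 ± 0.180 in P301S Cgas-/- (edgeR adjusted p = 0.761; 6.4% of all genes had an unadjusted p under 0.05; +0.25 with nuclei over 4000 genes) and +0.36 ± 0.170 in P301S Cgas+/- (edgeR adjusted p = 0.737; 6.51%). Of 18 exact two-sided permutation tests of the log2 ratio of Grin2b to Grin2a in neuronal classes, 0 passed after adjustment. The smallest p was that of dentate granule-like nuclei between P301S Cgas+/- (−1.32 ± 0.0654) and P301S Cgas+/+ libraries (−1.14 ± 0.155), with exact p = 0.0195 and adjusted p = 0.351, where 0.00216 was the smallest p the design allowed.

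In the pooled excitatory-like class, Grin2a and Grin2b were lower in both groups that lacked 1 or 2 copies of Cgas, without passing the test. Grin2a was 3459 ± 598 CPM (n = 5) in Cgas+/+ libraries. It was 4245 ± 1309 CPM in P301S Cgas+/+ (2227 to 5953, median 4275), 3278 ± 538 in P301S Cgas+/- (2348 to 3885, median 3326) and 3125 ± 682 CPM in P301S Cgas-/- libraries (2076 to 3894, median 3323). The P301S groups overlapped, and the P301S Cgas+/+ libraries spread the widest. The log2 difference of P301S Cgas-/- from P301S Cgas+/+ was −0.48 ± 0.197 (SE) for Grin2a (edgeR adjusted p = 0.287) and −0.32 ± 0.127 for Grin2b (edgeR adjusted p = 0.282), in a class where 13.7% of all genes had an unadjusted p under 0.05. That of P301S Cgas+/- was −0.42 for Grin2a (edgeR adjusted p = 0.411) and −0.34 ± 0.127 for Grin2b (edgeR adjusted p = 0.283). Grin2d had +0.71 ± 0.263 in P301S Cgas-/- (edgeR adjusted p = 0.253; +0.45 without the 5 libraries that stood apart and +1.09 in version 3.1.0 libraries only) and +0.06 ± 0.264 in P301S Cgas+/- libraries (edgeR adjusted p = 0.958). The hippocampal-like share, given above, was on average lower in both groups than in P301S Cgas+/+ libraries. Its part in these differences was not tested in this class.

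Grin3a differed in cortical-like nuclei, where its level is low, without passing the test. It was 102 ± 19.95 CPM in Cgas+/+ libraries (n = 5), at 132, 78.6, 98.3, 109 and 93.5 CPM in replicates 1 to 5. It was 99.8 ± 20.9 CPM in P301S Cgas+/+ (74.2 to 120, median 104), 56.4 ± 25.2 in P301S Cgas+/- (18.2 to 90.6, median 57.0) and 61.3 ± 24.2 CPM in P301S Cgas-/- libraries (35.5 to 96.7, median 54.1), with overlap between the groups. The log2 difference from P301S Cgas+/+ was −0.80 ± 0.293 in P301S Cgas-/- (edgeR adjusted p = 0.372; 9.28% of all genes had an unadjusted p under 0.05) and −0.93 ± 0.293 in P301S Cgas+/- (edgeR adjusted p = 0.170; 11.4%). Without the 5 libraries that stood apart these were −1.05 (edgeR adjusted p = 0.0607) and −0.92 (adjusted p = 0.0725), and in version 3.1.0 libraries only they were −0.73 (adjusted p = 0.608) and −0.81 (adjusted p = 0.436). In the 3 ranges of the hippocampal-like share, which was on average lower in both groups, mean cortical-like Grin3a was 56.9 ± 30.3, 83.6 ± 31.1 and 94.8 ± 29.2 CPM (SD, n = 4, 16 and 7), with overlap. The part of this share, and of the cortical-like subclusters with their wide range of Grin3a, in the difference was not tested.

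In Sst-like interneurons, Grin3a was lower in the P301S Cgas+/+ libraries than in the other P301S libraries, without passing the edgeR test. Grin3a was 763, 905, 1381, 1204 and 780 CPM in Cgas+/+ replicates 1 to 5 (mean 1007 ± 274). In P301S Cgas+/+ libraries it was 552 to 1098 CPM (median 946, mean 874 ± 211, n = 6), in P301S Cgas+/- libraries 1105 to 1420 (median 1258, mean 1263 ± 143, n = 6) and in P301S Cgas-/- libraries 1133 to 1501 (median 1389, mean 1363 ± 144, n = 6). The P301S Cgas+/+ libraries did not overlap the other 12 P301S libraries, while Cgas+/+ libraries overlapped all 3 groups. How many other genes part these libraries in the same way was not counted, so the gap is given as a description only. Without the transgene it was 836 and 591 CPM in Cgas+/- and 485 and 630 CPM in Cgas-/- libraries, below the Cgas+/+ range in 3 of these 4 male libraries, and the same 3 lay in the highest range of the hippocampal-like share. In an edgeR fit of the 5 interneuron subtypes, added after these levels had been seen, the log2 difference of P301S Cgas-/- from P301S Cgas+/+ was +0.60 ± 0.142 (edgeR adjusted p = 0.0670), that of P301S Cgas+/- was +0.49 ± 0.142 (adjusted p = 0.166), and that of P301S Cgas+/+ from Cgas+/+ was −0.18 ± 0.148 (adjusted p = 1.0). None of these passed, in a subtype where 0.189%, 0% and 0.0105% of all genes were called in the 3 contrasts and 9.49%, 8.68% and 3% were at an unadjusted p under 0.05. By DESeq2 the deletion difference passed (adjusted p = 0.0167), with 1.28% of all genes called. In version 3.1.0 libraries only, the edgeR deletion, heterozygous and tau differences were +0.74, +0.71 and −0.47. With the hippocampal-like share as a covariate the differences were +0.43 (edgeR adjusted p = 0.651) and +0.35 (adjusted p = 0.860).

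The makeup of the Sst-like nuclei moved with these groups as well. The subcluster with the highest Grin3a held 13.1% of the Sst-like nuclei of P301S Cgas+/+, 22.4% of P301S Cgas+/- and 25.2% of P301S Cgas-/- libraries, and its Grin3a level was 2089 ± 118 (n = 3), 2106 ± 164 (n = 6) and 2253 ± 370 CPM (n = 6). The largest subcluster over all libraries held 20.6%, 42.2% and 39.9%, with Grin3a at 1289 ± 321 (n = 4), 1334 ± 154 (n = 6) and 1375 ± 201 CPM (n = 6). Another subcluster with high Grin3a went the other way, at 24.2%, 15.1% and 20.8% of the nuclei, with Grin3a at 1127 ± 88.5, 1073 ± 110 and 1050 ± 194 CPM (n = 5 each). The 2 subclusters with less Grin3a also had lower shares in P301S Cgas+/- and P301S Cgas-/- libraries, at 19.3%, 6.70% and 7.25%, and 21.0%, 5.98% and 4.97%, and the last subcluster held 1.72%, 7.69% and 1.88%. Single libraries set some of these shares: without P301S Cgas+/- replicate 1 the 7.69% was 2.46%, without P301S Cgas+/+ replicate 1 the 20.6% was 13.2%, and without P301S Cgas-/- replicate 5 the 4.97% was 2.78%. Without P301S, the subcluster with the highest Grin3a held 17.8% in Cgas+/+, 10.1% in Cgas+/- and 5.85% in Cgas-/- libraries. The largest held 25.1%, 20.1% and 7.80%, and the 2 with less Grin3a 14.3%, 16.9% and 29.8%, and 19.1%, 30.6% and 26.3%. Without Cgas+/- replicate 1 the 10.1% was 2.97% and the 20.1% was 3.96%, and without Cgas-/- replicate 1 the 29.8% was 19.1%. Within each of the 3 subclusters with high Grin3a the P301S groups overlapped. Libraries with fewer than 10 nuclei of a subcluster were left out of its levels, and the shares pool the nuclei of a group. These libraries cannot tell apart a difference in the cells captured from one in the cells present. Over the 5 interneuron subtypes, 25 pairs of subunit gene and subtype were tested and 0 changed in the tau, deletion or heterozygous contrast (0.00846%, 0.0507% and 0.00282% of all pairs), with 0, 2 and 3 at an unadjusted p under 0.05 (2.94%, 5.91% and 6.11%). Grin2c was tested in none of them. The 2 pairs in the deletion contrast were Grin3a in Sst-like and in Pvalb-like nuclei, which hold little of it (−0.73, edgeR adjusted p = 1.0). In Cck-like nuclei the Grin3a difference was −1.16 (edgeR adjusted p = 0.997). In the heterozygous contrast they were Grin3a and Grin1 (+0.26, edgeR adjusted p = 0.496) in Sst-like and Grin2b in Vip-like nuclei (−0.28, edgeR adjusted p = 0.883).

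In astrocyte-like nuclei, Grin2b was lower in P301S libraries than in Cgas+/+ libraries without passing the test. It was 429, 418, 428, 469 and 448 CPM in Cgas+/+ replicates 1 to 5, and 272 to 427 CPM (median 337) in P301S Cgas+/+ libraries, of which 1 of 6 reached the Cgas+/+ range. The means were 439 ± 19.98 (n = 5) and 340 ± 55.4 CPM (n = 6), with a log2 difference of −0.43 ± 0.138 (edgeR adjusted p = 0.242), in a class where 11.7% of all genes had an unadjusted p under 0.05 in this contrast. It was −0.28 both with nuclei over 4000 genes and without the 5 libraries that stood apart. P301S Cgas+/- (335 ± 44.2) and P301S Cgas-/- libraries (327 ± 68.9 CPM) were close to P301S Cgas+/+. The makeup of the class moved with the tau transgene: the Gfap-led cluster, which holds less Grin2b, was 10.1 ± 4.72% of the astrocyte-like nuclei of a library in Cgas+/+ (3.79% to 17.01%) and 41.8 ± 22.5% in P301S Cgas+/+ libraries (11.7% to 72.9%). Within the main astrocyte-like cluster, Grin2b was 447 ± 19 CPM in Cgas+/+ (n = 5) and 388 ± 63.99 in P301S Cgas+/+ libraries (n = 6), and within the Gfap-led cluster it was 318 ± 71.2 and 298 ± 54.3 CPM, with overlap in both. The difference within these clusters was not tested. Grin2c, the astrocyte gene of the family, was 418 ± 76.7 CPM in Cgas+/+ libraries and 364 ± 67.8, 379 ± 84.7 and 400 ± 101 CPM in the P301S groups with 2, 1 and no copies of Cgas, with overlap throughout. In OPC-like nuclei Grin3a was 784 ± 99.2, 753 ± 81.2, 724 ± 97.2 and 795 ± 77.7 CPM in the same order.

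Whether the difference between Cgas-/- and Cgas+/+ libraries depended on P301S was tested as an interaction in all 27 libraries, of which only 2 were Cgas-/- without P301S. Both of these carried the older header version, 3.0.2, so software version and this group overlapped. Of 53 pairs, 0 passed (0.178% of all gene and class pairs did) and 7 had an unadjusted p under 0.05 (7.16%). The smallest adjusted p was that of Grin2a in excitatory-like nuclei (log2 difference −1.06 ± 0.336, edgeR adjusted p = 0.0928), followed by Grin2a in cortical-like nuclei (−0.91 ± 0.284, edgeR adjusted p = 0.105). Cortical-like Grin2a was 3583 and 2902 CPM in the 2 Cgas-/- libraries, 2239 ± 222 in Cgas+/+ (n = 5), 2480 ± 642 in P301S Cgas+/+ (n = 6) and 2046 ± 213 in P301S Cgas-/- libraries (n = 6). Both Cgas-/- libraries lay in the highest range of the hippocampal-like share (73.7% and 81.8%), against 1 of 5 Cgas+/+ and 0 of 6 P301S Cgas-/- libraries, and the part of the share in this difference was not tested. In cortical-like nuclei 1.36% of all genes were called in the interaction. Without the 5 libraries that stood apart, 2 pairs passed, Grin2a (−1.13, edgeR adjusted p = 0.0126) and Grin2b (−0.84, adjusted p = 0.0314) in cortical-like nuclei, where 5.3% of all genes were then called. With the software version as a covariate, Grin2a had −1.13 (edgeR adjusted p = 0.0733) in excitatory-like and −1.02 (adjusted p = 0.0508) in cortical-like nuclei. Grin2b in cortical-like nuclei had −0.75 (adjusted p = 0.0946) with this covariate and −0.62 (adjusted p = 0.262) without it. Between Cgas-/- and Cgas+/+ libraries without P301S, 0 of 53 pairs passed (0.000754% of all pairs) and 1 had an unadjusted p under 0.05 (3.74%), Grin2a in cortical-like nuclei at +0.60 (edgeR adjusted p = 0.452), which was +0.38 without Cgas-/- replicate 1.

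Between females and males, 2 of 53 pairs changed (3.26% of all gene and class pairs), both of them Grin2d in excitatory subtypes where its level is very low. In CA1-like nuclei Grin2d was 1.51 to 2.80 CPM (median 1.95) in 11 females and 1.99 to 5.37 CPM (median 4.38) in 12 males, from 1 to 32 UMIs per library. The log2 difference was −0.94 ± 0.202 (edgeR adjusted p = 0.0161; 2.23% of all genes were called in this class, 1.62% lower in females). In dentate granule-like nuclei it was 2.13 ± 0.725 CPM (n = 11) in females and 3.54 ± 1.77 (n = 12) in males, a log2 difference of −0.65 ± 0.187 (edgeR adjusted p = 0.0441; 4.43%, and 2.68% lower in females). The ranges overlapped in both classes. With the software version of the header as a covariate, the values were −0.95 (edgeR adjusted p = 0.174) and −0.67 (adjusted p = 0.288), and no female library carried the older version. Both subtypes held less Grin2d on average than the pooled excitatory-like class, at 5.65 CPM against 69.6 in inhibitory-like nuclei. In that pooled class Grin2d was at 8.14% of its inhibitory-like level, where Gad1 was at 3.49% and Gad2 at 0.547%. It exceeded both Gad genes in 22 of 27 libraries. The part of leaked RNA in the Grin2d counts of CA1-like and dentate granule-like nuclei was not tested.

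The partners of the receptor, a list of 68 genes, were read from the same fits, only in the pooled excitatory-like and inhibitory-like classes. In the excitatory-like class the mean hippocampal-like share was 27.3% in P301S Cgas-/- and 30.2% in P301S Cgas+/- libraries, against 54.8% in P301S Cgas+/+. Its part in the partner counts was not tested. The partners comprise postsynaptic scaffolds, auxiliary and trafficking proteins, kinases and phosphatases, suppliers of glutamate and co-agonists, and downstream signalling proteins. In excitatory-like nuclei 67 were tested and 0 changed in the tau, deletion or heterozygous contrast, where almost no gene was called (0.0236%, 0% and 0% of all genes). At an unadjusted p under 0.05 stood 0, 19 and 14 of them, or 28.4% and 20.9% in the latter 2, beside 2.24%, 13.7% and 11.7% of all genes. The list was chosen with earlier results of these data known, and genes of a similar level were not set beside it. These shares, and those by role and in the interaction below, are therefore a description only. The deletion contrast had 7 of 15 scaffolds, 7 of 21 kinases and phosphatases, 3 of 14 auxiliary and trafficking partners, 2 of 12 supply genes and 0 of 5 downstream genes at that level. The smallest p belonged to Actn2, an actin crosslinker that binds GluN1 (−0.84 ± 0.213, edgeR adjusted p = 0.219), Nos1, the neuronal nitric oxide synthase (−0.75 ± 0.243, edgeR adjusted p = 0.227), and Nsf, a vesicle fusion ATPase (−0.33 ± 0.109, edgeR adjusted p = 0.231). DESeq2 called Actn2 in this contrast (adjusted p = 0.0390), with 0.644% of all genes. In the heterozygous contrast, Camk2g (+0.33) and Actn2 (−0.68) were among those with the smallest p, with edgeR adjusted p = 0.222 and 0.223. In the tau contrast the smallest p belonged to Reln (−0.86), Camk2d (−0.49) and Dlg3 (+0.13). In inhibitory-like nuclei 65 were tested and 0 changed (0.00789%, 0% and 0.0237% of all genes did), with 0, 7 and 5 at an unadjusted p under 0.05, beside 2.72%, 5.87% and 5.93% of all genes. There Lin7a (−0.50), Apba1 (−0.31) and Dlgap3 (−0.29) had the smallest p in the deletion contrast, and the same 3 genes in the heterozygous contrast (−0.45, −0.26 and −0.34). In the tau contrast they were Lin7b (−0.61), Dlg3 (+0.18) and Dlgap3 (+0.21). Single libraries set some of these values: without Cgas+/+ replicate 3 the tau difference was −0.53 for Reln, −0.26 for Camk2d and +0.13 for Dlgap3, and without P301S Cgas+/+ replicate 4 it was −0.31 for Camk2d and +0.13 for Dlgap3, and the heterozygous difference of Apba1 was −0.17. Without Cgas+/+ replicate 5 that of Reln was −0.54. Between the sexes, 5 of the 67 changed in excitatory-like nuclei (7.84% of all genes did), Dlg4 (the scaffold PSD-95), Srr (serine racemase), Rasgrp1, Slc1a1 and Lrp8, all higher in females (2.17% of all genes were called higher). With the software version as a covariate 0 passed and 0.0708% of all genes did, while the log2 differences were 0.45 against 0.40 for Dlg4, 0.23 in both fits for Srr, 0.28 against 0.33 for Rasgrp1, 0.18 against 0.26 for Slc1a1 and 0.27 against 0.31 for Lrp8. In the interaction, 0 of 68 partners passed in excitatory-like nuclei (0.00561% of all genes did) and 26 (38.2%) had an unadjusted p under 0.05, beside 18.9% of all genes.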

How the data were processed

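The authors isolated nuclei from frozen hippocampi, sorted them by DAPI and made 10x 3' v3 libraries. They counted reads with Cell Ranger on mm10, including reads on pre-mRNA. The deposited matrices hold raw UMI counts per gene and barcode, with no normalization. The headers name Cell Ranger 3.0.2 or 3.1.0, while the methods of the study name only 3.1.0. No per-sample column was left unused. Barcodes were filtered to 200 to 4000 genes and no more than 5% of UMIs from mitochondrial genes, and likely doublets were removed (scores from simulated doublets, 0.8% per 1000 barcodes). Nuclei were clustered in scanpy 1.11.5 (2000 variable genes, 30 components, 15 neighbours, resolution 1) without the 6 subunit genes or the partner list. Clusters were named from marker lists. The naming rules were revised after markers and leading genes were seen, before groups were compared. CPM is a gene's UMIs scaled to the total UMIs of its library and class, and libraries with fewer than 10 nuclei of a class were left out. UMIs summed per library and class were tested with edgeR 4.0.16 (TMM, low-count filter, quasi-likelihood test, sex as covariate, libraries of 4 groups). DESeq2 1.42.0, run in R 4.3.3, was an alternative. The edgeR step was tested on simulated data. The SE of a log2 difference is its size divided by the square root of F. P-values measure the spread between mice, 1 library each. The genes and lists were chosen with earlier results of these data known. The text names all 6 genes, partners with an adjusted p under 0.05 or else the 3 with the smallest p, and the 3 genes most like each subunit gene among those with at least 10 CPM. Levels in Cajal-Retzius-, T cell-, pericyte-, fibroblast-, choroid plexus- and ependymal-like nuclei are not given. Some genes that these rules name are not reported here. Totals of UMIs per library (46091490 to 79484316) set the precision of low genes, and errors are the spread over libraries. Gene positions come from GENCODE vM21 (GRCm38). Annotation release and strand setting of the counting are not given in the sources used here.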

Additional observations from a re-analysis of the deposited data

Results flagged for a closer look

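Within each group of 4 to 10 libraries, the highest and lowest library were compared with the others by Dixon's ratio for 24 pairs of subunit gene and class, 96 groups in all, of which chance flags about 1 in 20, and 6 were flagged. In dentate granule-like nuclei, Grin1 was at 428 CPM in P301S Cgas+/+ replicate 5, where the nearest of the other libraries was at 534, and at 397 CPM in P301S Cgas-/- replicate 6, where the nearest was at 546. In cortical-like nuclei, Grin1 was at 312 CPM in P301S Cgas+/+ replicate 5, where the nearest was at 537. Grin2a in dentate granule-like nuclei was at 4560 CPM in Cgas+/+ replicate 1, below the nearest at 5158. In CA3-like nuclei, Grin2a was at 3653 CPM in P301S Cgas+/- replicate 1, below the nearest at 3947, and Grin2b was at 2744 CPM in P301S Cgas+/+ replicate 6, above the nearest at 2393.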

How the results depend on the processing

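The counts of changed subunit genes in the tau, deletion and heterozygous contrasts were 0 under each alternative run (DESeq2, another scaling, no low-count filter, only the 2 groups compared, all 27 libraries, no sex covariate, nuclei over 4000 genes, likely doublets kept, and, added after seeing the data, software version and the 5 libraries that stood apart) and without each library in turn. Females against males had 2 calls, in CA1-like and dentate granule-like nuclei (2.23% and 4.43% of all genes), 1 with all 27 libraries (2.38% and 4.82%), with no low-count filter (1.19% and 2.16%) or with likely doublets kept (2.14% and 4.26%), 0 with the software version as a covariate (0.0764% and 0.126%), without the 5 libraries (0.461% and 1.43%) or in version 3.1.0 libraries only (0.0938% and 0.0607%), and 0 to 2 without each library (0 without P301S Cgas+/- replicate 2, where 0.629% and 1.32% were called). The interaction had 2 calls without the 5 libraries. It had 0 to 1 when each of the 7 Cgas+/+ and Cgas-/- libraries that lack P301S was left out in turn. The 1 call was Grin2a in excitatory-like nuclei, without Cgas+/+ replicate 2. P301S libraries were not left out one by one in the interaction. Partner genes had 1 call by DESeq2 in the deletion contrast (Actn2). In the interaction they had 0 calls, and 1 (Slc1a1) without the 5 libraries, where 0.836% of all genes of excitatory-like nuclei were called. They had 0 to 9 when each of the same 7 libraries was left out (9 without Cgas+/+ replicate 2, where 5.86% were called). By sex they had 8 with nuclei over 4000 genes (6 in excitatory-like and 2 in inhibitory-like nuclei, where 9.73% and 4.64% of all genes were called), 0 with the version as a covariate, 1 without the 5 libraries (0.265% in excitatory-like nuclei), 0 in version 3.1.0 libraries only (0.0354%) and 3 to 10 without each library (4.20% to 10.6% in excitatory-like and 0.807% to 4.80% in inhibitory-like nuclei). In interneuron subtypes, Grin3a in Sst-like nuclei was 1 call by DESeq2 in the deletion contrast, 0 to 1 without each library (1 without Cgas+/+ replicate 1 or 3, P301S Cgas+/+ replicate 1 or 2 or P301S Cgas-/- replicate 5, where 0.275% to 1.18% of all genes were called, against 0% to 0.294% without each of the others), and 1 call in the heterozygous contrast in version 3.1.0 libraries only, where 0.872% of all genes were called against 0% with both versions. Grin2b in microglia-like nuclei had a deletion difference of 0.000129 (log2) with nuclei over 4000 genes. The heterozygous difference of the Grin2b to Grin2a ratio in dentate granule-like nuclei was 0.00856 when computed from shares of nuclei with a UMI, against −0.182 from UMIs. The cause was not tested for any of these. Of 276 levels recomputed with nuclei over 4000 genes or likely doublets, 42 moved by more than 1 SD, on 29 pairs of gene and class or subtype. The levels given above are those without these nuclei. No paired analysis was possible because replicate numbers were given in accession order and pair no samples. Depth limits the low genes: Grin2d had 1 to 32 UMIs per library in CA1-like nuclei, and Grin2c did not pass the low-count filter there.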

Other observations

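An unnamed cluster of 907 nuclei was led by Fat2 and Gabra6, genes known from cerebellar granule cells, and 68.9% of it came from 1 library. It carried fewer than 3 markers of any listed cell type and entered no comparison. In the 8 libraries with at least 10 of these nuclei (866 nuclei), Grin2c was at 210 ± 64.9 CPM (SD, n = 8), Grin1 at 664 ± 100.1, Grin2a at 1619 ± 330 and Grin2b at 204 ± 48.3 CPM. Grin2c was thus above its level of 0.392 to 4.12 CPM in the named neuron subtypes. Grin2d was at 0.208 ± 0.589 and Grin3a at 28.1 ± 27.5 CPM.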
